A study of Drosophila melanogaster with 36 samples.

Results

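The transcripts described here encode 10 Drosophila melanogaster proteins that cut or release nascent RNA at its 3′ end: the Integrator subunits IntS1, IntS4, IntS9 and IntS11, the cleavage factors Cpsf73 and Cpsf100, the termination factor Pcf11, the cleavage stimulation factor subunits CstF64 and su(f), and the histone stem-loop binding protein Slbp. They were taken by symbol from the 17137 gene symbols of the count files as factors of 1 pathway. The reason for interest was a gain of reads on small nuclear RNAs and on genes downstream of induced genes in poly(A) libraries of this study. The gain on downstream genes was not tested here. All 10 symbols were found, and all 10 passed the filter on low counts in every fit. The study exposed S2R+ cells (S2 in the sample titles), a semi-adherent cell line of embryonic haemocyte-like origin, to sodium arsenite, which causes proteins and RNA to gather in stress granules. It asked what happens to the transcriptome when granule formation is impaired.

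The 36 libraries form 4 sets of 9 libraries, each with 3 control libraries from untreated cells, 3 stress libraries from cells kept in 0.5 mM arsenite for 3 h, and 3 recovery libraries from cells washed after that stress and kept for another 3 h in fresh medium. In the set called Rin, the G3BP homologue rasputin (rin), a protein of stress granules, was knocked down by RNA interference. The set called Mock had a mock RNA interference, whose target the labels do not name. In the set called Click-iT, sample titles name beads and the labels give total RNA, where the other 27 libraries are labelled poly(A) RNA. What the beads captured is not given in the sources used here. The set called WT carries no RNA interference in its labels. Nothing says whether the 3 libraries of a group come from separate cultures, so every p-value measures the spread between these libraries, which may be technical.

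As background, most messenger RNAs end where CPSF, the cleavage and polyadenylation specificity factor, cuts the transcript. Cpsf73 is the enzyme that cuts, Cpsf100 its catalytically inactive partner, CstF binds the U- and GU-rich sequence beyond the cut, and Pcf11 links the cut to the release of RNA polymerase II. Small nuclear RNAs are cut by Integrator instead, whose enzyme IntS11 and partner IntS9 are relatives of Cpsf73 and Cpsf100, and Integrator also ends transcription early at many protein-coding genes. Replication-dependent histone transcripts are not polyadenylated: Slbp binds their stem-loop, and the Cpsf73 and Cpsf100 pair makes the cut there too.

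In dm6 coordinates the genes lie on 4 chromosome arms. IntS1 is at 24037943 to 24044458 on the plus strand of 2R, IntS4 at 8555239 to 8558781 on the minus strand of X, IntS9 at 16103432 to 16105627 on the minus strand of 3L, and IntS11 at 29745337 to 29747513 on the plus strand of 3R. Cpsf73 (3R, 18661121 to 18663552, minus strand) and CstF64 (3R, 18659618 to 18661126, plus strand) are neighbours that run towards each other and share 6 bases at their 3′ ends. Cpsf100 lies at 29034573 to 29037062 on the plus strand of 3R, Slbp at 29152074 to 29153266 on the minus strand of 3R, su(f) at 23096771 to 23101431 on the plus strand of X, and Pcf11 at 14860936 to 14871071 on the minus strand of 2R. Pcf11 has 7 annotated transcripts and su(f) has 3; the other 8 genes have 1 each, and values are per gene. Of the exons of IntS11, 668 bases overlap the antisense gene asRNA:CR46109; whether strand was used in counting is not given in the sources used here. The antisense gene averaged 2.37 CPM (counts scaled to library size) in WT stress libraries and 1.47 in WT control libraries, where IntS11 itself averaged 285 ± 2.39 in WT control libraries. These levels do not measure what the overlap does to the IntS11 count, which was not tested. The exonic overlap was 51 bases for IntS9 with IleRS-m, 6 bases for IntS1 with tsr and 5 bases for Cpsf100 with Slu7.

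Poly(A) libraries held 6121664 to 11211712 reads counted on genes, and Click-iT libraries 169760 to 2746277. Reads that did not map to 1 place made up 3.88% to 7.51% of the HTSeq total in poly(A) libraries and 70.2% to 94.2% in Click-iT libraries. The knocked-down gene rin had 391, 280.2 and 204 CPM in Rin control libraries, against 895, 912 and 896 in Mock control libraries, so transcript remained after knockdown. Of 7 haemocyte markers 6 had a mean over 1 CPM in WT control libraries, and NimC1 was at 0 there. Their summed level was 3647 to 3826 CPM in WT stress and 4617 to 4800 in WT control libraries, and 544 to 675 in Mock stress and 955 to 1043 in Mock control libraries. Pxn was the largest part, with a mean of 3760 CPM in WT control and 564 in Mock control libraries. Summed over 13 markers of neurons, muscle, germ line, fat body and gut, the level was 238 to 245 CPM in WT stress and 147 to 166 in WT control libraries, of which bam alone gave 129 ± 6.95 in WT control libraries (SD, n = 3). The part of these marker differences in the results below was not tested.

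Per exon length, the order of the transcripts was led by IntS11 and Slbp in every poly(A) group. As RPKM, reads scaled for exon length and library size, IntS11 stood at 139.6 ± 1.17 in WT control libraries and Slbp at 96.4 ± 3.37 (SD, n = 3 for every mean here). su(f) followed at 40.7 ± 1.87 RPKM, IntS1 at 35.1 ± 2.92 and Cpsf73 at 29.1 ± 1.06. CstF64 (23.6 ± 1.73 RPKM), IntS4 (22 ± 1.16) and Cpsf100 (21.4 ± 0.289) had overlapping libraries from each to the next. IntS9 at 18.5 ± 0.637 and Pcf11 at 17.3 ± 0.793 RPKM came last in WT control libraries. By this measure the enzyme subunit IntS11 had a level many times that of its partner IntS9, with the effect of its antisense overlap not tested. Exon length was the union of the exons of all transcripts of a gene, which for Pcf11 was 7815 bases over 7 transcripts. Ranks between genes depend on that choice. In WT recovery libraries Pcf11 ranked 4 of 10 by RPKM, at 26.3 ± 0.763, having been 10 of 10 in WT control libraries.

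**Figure D1:**
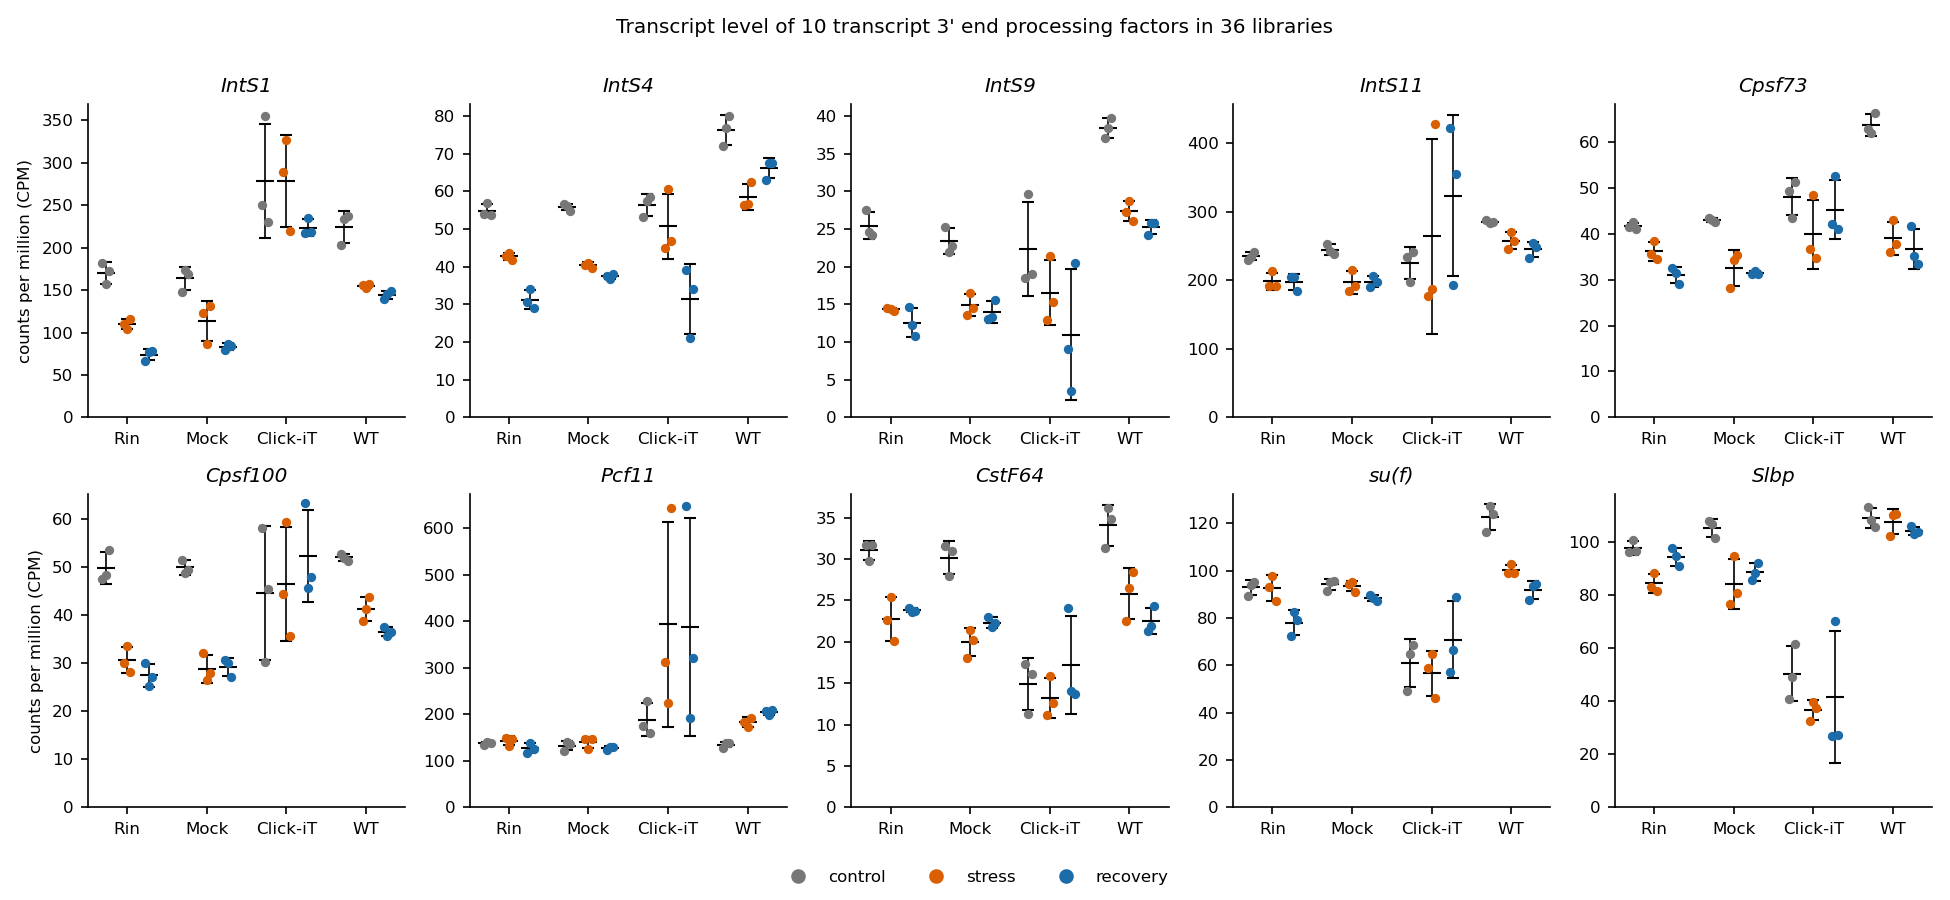
Level of each of the 10 transcripts in CPM (linear axis from 0, scaled by TMM within WT, within Mock with Rin, and within Click-iT libraries) in all 36 libraries; points are libraries, bars the mean and SD of 3, grey control, orange stress and blue recovery. In the WT set Pcf11 lies higher in stress and recovery than in control libraries while 8 of the other 9 lie lower, and the Click-iT libraries spread far more than the poly(A) libraries.

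In WT cells under arsenite the Integrator and cleavage transcripts fell and Pcf11 rose. Of the 10 transcripts 8 fell in stress against control, Pcf11 rose and Slbp did not pass the test. Over all 8123 genes tested, 30% fell and 30.3% rose at the same threshold (edgeR quasi-likelihood test, Benjamini-Hochberg adjusted p under 0.05, two-sided). The median log2 fold change was -0.36 over the 10 and 0.0052 over all genes tested. In recovery against control the count was again 8 lower and 1 higher, against 33.5% of all genes lower and 35.2% higher, and the 10 had a median of -0.46. Libraries of the 2 groups did not overlap for 9 of 10 transcripts in either comparison, as for 63.2% of all genes tested in stress and 71.9% in recovery. Both comparisons use the same 3 control libraries. In bulk RNA a lower level cannot be told apart from fewer cells of a type that expresses the gene.

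The 4 Integrator transcripts fell in both states. IntS1, the largest subunit and a scaffold of the complex, had 203, 234 and 237 CPM in WT control, 156, 152 and 157 CPM in WT stress and 139, 145 and 149 CPM in WT recovery libraries. The stress and recovery libraries all lay under the controls, as did those of the other 3 Integrator transcripts. Its log2 fold change was -0.54 in stress (SE 0.047, edgeR adjusted p = 6.22e-13) and -0.64 in recovery (SE 0.047, edgeR adjusted p = 2.63e-15). IntS9, the inactive partner of the enzyme, had 37.1, 38.4 and 39.7 CPM in WT control, 27.2, 28.8 and 26.1 in WT stress and 24.2, 25.8 and 25.8 in WT recovery libraries. It fell by 28.7% in stress and fell by 34.3% in recovery against control. The enzyme IntS11 moved least of the 4 in stress, with 287, 283 and 285 CPM in WT control, 245, 270.2 and 257 in WT stress and 233, 254 and 248 in WT recovery libraries. It fell by 9.64% in stress (edgeR adjusted p = 0.00225) and fell by 14.2% in recovery (edgeR adjusted p = 1.01e-05).

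IntS4, which holds IntS9 and IntS11 together in the cleavage module, was the Integrator transcript that stood higher in recovery than in stress. It had 71.9, 76.7 and 79.9 CPM in WT control, 56.4, 56.6 and 62.4 in WT stress and 63, 67.6 and 67.6 in WT recovery libraries, and no library of any state overlapped another state's. The log2 difference of recovery from stress was 0.18 (SE 0.060, edgeR adjusted p = 0.0236). That call was lost when any of 4 of the 6 libraries compared was left out, with adjusted p between 0.0869 and 0.102, and by DESeq2 (adjusted p = 0.17). The gene CG12112 lies 97 bases upstream of IntS4 on the same strand. It averaged 67.9 CPM in WT control, 80.8 in WT stress and 81.6 in WT recovery libraries. Whether reads ran from CG12112 into IntS4 was not tested.

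Among the polyadenylation factors the enzyme Cpsf73 fell furthest. Its libraries had 62.7, 62 and 66.3 CPM in WT control, 36, 43.1 and 37.8 in WT stress and 41.6, 35.2 and 33.4 in WT recovery. It fell by 38.7% in stress (log2 fold change -0.71, SE 0.072, edgeR adjusted p = 5.09e-11) and fell by 42.1% in recovery, the largest change of the 10 in either state in WT cells. Cpsf100, its partner, had 52.7, 51.9 and 51.3 CPM in WT control, 38.8, 41.3 and 43.7 in WT stress and 37.6, 35.7 and 36.4 in WT recovery libraries. It fell by 20.6% in stress and fell by 29.6% in recovery, again with no overlap with the controls.

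CstF64, the RNA-binding subunit of CstF, had 31.3, 36.1 and 34.8 CPM in WT control, 22.5, 26.5 and 28.5 in WT stress and 21.3, 21.9 and 24.3 in WT recovery libraries. Its log2 fold change was -0.41 in stress (edgeR adjusted p = 8.81e-05) and -0.61 in recovery (edgeR adjusted p = 1.01e-07). su(f), the scaffold subunit of CstF, had 116, 127 and 124 CPM in WT control, 99, 103 and 99.2 in WT stress and 87.7, 93.4 and 94.4 in WT recovery libraries. Both subunits lay lower than control in every stress and recovery library of this set. For su(f) the level fell by 18.3% in stress and fell by 25.4% in recovery; its difference between recovery and stress stood at the threshold (log2 -0.13, edgeR adjusted p = 0.0491) and passed it under few other settings.

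Pcf11 went the other way in the WT set. It had 128, 139 and 138 CPM in WT control, 184, 173 and 193 in WT stress and 207, 199 and 210.4 in WT recovery libraries, each state lying wholly over the one before. The increase over control was 35.2% in stress (log2 fold change 0.44, SE 0.047, edgeR adjusted p = 1.61e-10) and 51.9% in recovery (log2 fold change 0.60, SE 0.045, edgeR adjusted p = 7.19e-15). Recovery exceeded stress by 0.17 on the log2 scale (SE 0.044, edgeR adjusted p = 0.00305), a call that was lost when libraries were scaled by their total counts alone (log2 0.091, adjusted p = 0.0909). Slbp, with 113, 108 and 106 CPM in WT control, 102, 110.3 and 111 in WT stress and 106, 103 and 104 in WT recovery libraries, overlapped control in both states. Its log2 fold change was -0.016 in stress (95% interval -0.11 to 0.081) and -0.064 in recovery (95% interval -0.16 to 0.033); scaled by total counts alone, Slbp was called lower in both.

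Between recovery and stress in WT cells, IntS4 and Pcf11 were higher and su(f) lower, 3 of 10, where 18.2% of all genes tested were higher and 8.33% lower. Of the 10, 6 did not overlap between those states, as for 38.3% of all genes tested. The remaining 7 had log2 differences from -0.20 for CstF64 to -0.048 for Slbp.

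The Integrator, Cpsf73, Cpsf100 and CstF64 transcripts fell in Mock cells as well, Slbp fell with them, and Pcf11 and su(f) did not pass the test. In stress against control 8 of 10 were lower and 0 higher, against 29.8% of 8707 genes tested lower and 29% higher. In recovery against control the counts were again 8 and 0, against 32.8% lower and 33.1% higher. The median log2 fold change of the 10 was -0.44 in stress and -0.44 in recovery, against 0.0029 and 0.014 over all genes tested. Libraries did not overlap for 8 of 10 transcripts in stress and 9 of 10 in recovery, as for 59.4% and 70.2% of all genes tested.

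IntS1 had 148, 174 and 169 CPM in Mock control, 123, 86.3 and 131 in Mock stress and 78.9, 86.3 and 84.4 in Mock recovery libraries. Mock stress replicate 2 lay as low as the recovery libraries, and all of both states lay under control. The log2 fold change was -0.53 in stress (SE 0.11, edgeR adjusted p = 0.000281) and -0.98 in recovery (SE 0.11, edgeR adjusted p = 1.26e-07). Of the 10 it was the single one to differ between Mock recovery and Mock stress (log2 -0.45, edgeR adjusted p = 0.017), where 4.31% of all genes tested were lower and 5.02% higher. Between those states 3 of 10 transcripts did not overlap, as for 24.8% of all genes tested. That call was lost without Mock stress replicate 1 (adjusted p = 0.0924), without Mock stress replicate 3 (0.124) or without Mock recovery replicate 1 (0.0782). Mock stress replicate 2 stood apart from the other Mock stress libraries, since the chi-square of their counts over genes, divided by its degrees of freedom (near 1 for counting error alone), was 27.7 and 20.2 against replicates 1 and 3 and 1.92 between those. Without it 3 of 10 passed between recovery and stress, IntS1 and Pcf11 lower and Slbp higher, and 2396 genes passed in place of 812.

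Cpsf100 fell furthest of the 10 in Mock stress. It had 51.5, 48.7 and 49.4 CPM in Mock control, 32, 26.5 and 27.9 in Mock stress and 30.6, 29.9 and 27.1 in Mock recovery libraries, and fell by 42% in stress (log2 fold change -0.79, SE 0.085, edgeR adjusted p = 1.12e-07). Cpsf73 had 43.3, 43 and 42.6 CPM in Mock control, 28.1, 34.2 and 35.4 in Mock stress and 31.3, 32 and 31.2 in Mock recovery libraries, and fell by 24.4% in stress. CstF64 had 31.6, 27.9 and 31 CPM in Mock control, 18.1, 21.4 and 20.3 in Mock stress and 23, 21.7 and 22.2 in Mock recovery libraries, and fell by 34% in stress. For these 3 cleavage factors no stress or recovery library overlapped a control library.

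Among the other Integrator transcripts, IntS9 had 25.3, 22 and 22.8 CPM in Mock control, 13.6, 16.5 and 14.6 in Mock stress and 13, 13.3 and 15.6 in Mock recovery libraries. IntS4 had 56.6, 56 and 54.8 CPM in Mock control, 40.5, 41 and 39.5 in Mock stress and 37.5, 36.6 and 38 in Mock recovery libraries, with the recovery libraries the lowest. IntS11 had 253, 242 and 238 CPM in Mock control, 184, 215 and 191 in Mock stress and 189.9, 206 and 197 in Mock recovery libraries. In stress IntS9 fell by 36.5%, IntS4 by 27.7% and IntS11 by 19.5%, and in recovery IntS9 fell by 40.1%, IntS4 by 33% and IntS11 by 19.1%.

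Slbp had 108, 107 and 102 CPM in Mock control, 76.8, 94.7 and 80.6 in Mock stress and 85.7, 88.4 and 92.2 in Mock recovery libraries, all of both states under control. It fell by 20.4% in stress (edgeR adjusted p = 0.000248) and fell by 15.8% in recovery (edgeR adjusted p = 0.00229). Pcf11 had 121, 140.3 and 136 CPM in Mock control, 147, 126 and 146 in Mock stress and 124, 129 and 130.3 in Mock recovery libraries. Its states overlapped, with a log2 fold change of 0.077 in stress (95% interval -0.077 to 0.23) and -0.054 in recovery (95% interval -0.21 to 0.10). su(f) had 91.6, 95.3 and 95.7 CPM in Mock control, 94.4, 95.1 and 91.2 in Mock stress and 89.8, 88.4 and 87.3 in Mock recovery libraries, with log2 fold changes of -0.0090 in stress (95% interval -0.13 to 0.11) and -0.090 in recovery (95% interval -0.21 to 0.030). Scaling by total counts alone put the median of all genes at -0.16 in Mock stress and -0.23 in Mock recovery on the log2 scale, and under it su(f) was called lower in both states and Pcf11 in recovery.

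The Integrator, Cpsf73, Cpsf100 and CstF64 transcripts fell in both states in Rin cells too, su(f) fell in recovery and Slbp in stress, and Pcf11 passed in neither state. In Rin stress against control 8 of 10 were lower and 0 higher, against 30.8% of all genes tested lower and 30.4% higher. In Rin recovery against control the counts were again 8 and 0, against 34.3% lower and 35.2% higher. The median log2 fold change of the 10 was -0.30 in stress and -0.40 in recovery. Libraries did not overlap for 8 of 10 in each, as for 68.1% of all genes tested in stress and 73.3% in recovery.

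IntS1 had 182, 157 and 172 CPM in Rin control, 109.8, 104 and 115.5 in Rin stress libraries and 66.4, 76.7 and 78.8 in Rin recovery libraries, with no overlap between states. It fell by 35.6% in stress and fell by 56.6% in recovery (log2 fold change -1.20, SE 0.11, edgeR adjusted p = 6.03e-09). IntS9 had 27.5, 24.6 and 24.2 CPM in Rin control, 14.6, 14.4 and 14.2 in Rin stress libraries and 14.6, 12.3 and 10.7 in Rin recovery libraries, and it fell by 43.5% in stress and fell by 50.3% in recovery. These were the 2 transcripts of the 10 whose log2 fold change exceeded 1 in size in a comparison that passed the test.

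IntS4 had 54, 56.8 and 53.6 CPM in Rin control, 42.8, 43.6 and 41.8 in Rin stress libraries and 30.5, 34.1 and 29.1 in Rin recovery libraries, each state lying wholly under the one before. Its log2 fold change was -0.36 in stress and -0.80 in recovery, and the log2 difference of recovery from stress was -0.45 (SE 0.062, edgeR adjusted p = 0.000104). IntS11 had 229.7, 234 and 241 CPM in Rin control, 191, 213 and 191 in Rin stress libraries and 204, 204 and 184 in Rin recovery libraries, and it moved least of the 4: it fell by 15.6% in stress and fell by 16% in recovery.

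Cpsf100 had 47.6, 48.2 and 53.5 CPM in Rin control, 30.0, 33.5 and 28.1 in Rin stress libraries and 30.1, 25.2 and 27 in Rin recovery libraries, and fell by 38.7% in stress and fell by 44.9% in recovery. Cpsf73 moved less, with 41.5, 42.5 and 41.1 CPM in Rin control, 35.5, 38.4 and 34.6 in Rin stress libraries and 32.5, 31.4 and 29 in Rin recovery libraries. It fell by 13.4% in stress (edgeR adjusted p = 0.0164), which was not called without Rin stress replicate 1 (adjusted p = 0.0546) or replicate 3 (0.0802). CstF64 had 31.7, 29.7 and 31.7 CPM in Rin control, 22.6, 25.4 and 20.1 in Rin stress libraries and 24.1, 23.7 and 23.8 in Rin recovery libraries, and fell by 27% in stress and fell by 23.3% in recovery.

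su(f) differed between the 2 treated states in Rin cells. It had 89.5, 94.1 and 95.3 CPM in Rin control, 93, 97.9 and 87.1 in Rin stress libraries and 72.3, 82.7 and 79.2 in Rin recovery libraries. Stress overlapped control (log2 fold change -0.0061), and recovery lay under both (log2 -0.25 against control, edgeR adjusted p = 7e-04, and -0.25 against stress, edgeR adjusted p = 0.00426). Slbp had 96.1, 101 and 96.6 CPM in Rin control, 83.2, 88.5 and 81.6 in Rin stress libraries and 97.7, 94.6 and 90.9 in Rin recovery libraries; it fell by 13.8% in stress (edgeR adjusted p = 0.0079) and did not pass in recovery (log2 -0.051, 95% interval -0.19 to 0.086). Pcf11 had 134, 141 and 139 CPM in Rin control, 149.9, 132 and 147 in Rin stress libraries and 117, 138 and 126 in Rin recovery libraries and passed in neither state. In Rin recovery against stress 4 of 10 were lower (IntS1, IntS4, Cpsf73 and su(f)) and 0 higher, against 16.2% of all genes tested lower and 14.2% higher, and 5 of 10 did not overlap between those states, as for 45% of all genes tested. The Cpsf73 call among them (edgeR adjusted p = 0.0355) was lost when any 1 of Rin stress replicates 1 and 2 and the 3 Rin recovery replicates was left out (adjusted p 0.0502 to 0.138), with no filter on low counts (0.0738) or with the compared groups alone (0.0552).

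The same 7 transcripts, IntS1, IntS4, IntS9, IntS11, Cpsf73, Cpsf100 and CstF64, fell in stress in each of the WT, Mock and Rin sets, which have their own controls; 18.3% of the 7985 genes tested in both fits did so. The same 7 fell in recovery in each set, as did 20.9% of those genes. Of the 10, 0 rose in all 3 sets in either state.

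**Figure D2:**
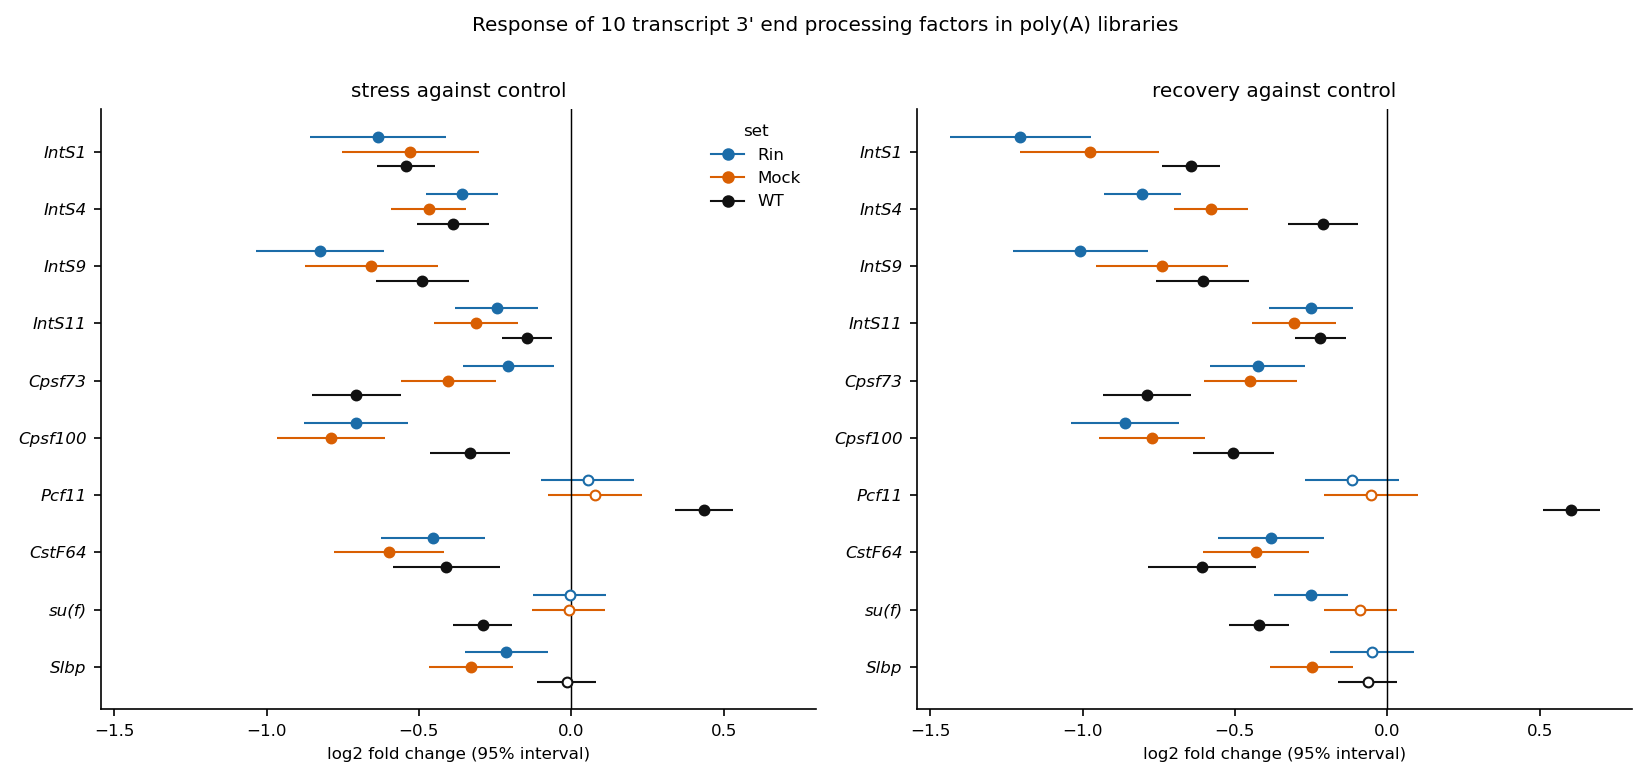
Log2 fold change of each transcript against the control libraries of its own set in stress (left) and recovery (right), with 95% intervals, in Rin (blue), Mock (orange) and WT (black) cells, 3 libraries per group; filled points passed an edgeR adjusted p of 0.05 and open points did not. Pcf11 lies to the right of 0 in WT cells alone among called points, and IntS1 in Rin recovery lies furthest left at -1.20.

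Whether the knockdown of rin changed these transcripts was tested directly, at each treatment and as a difference of responses. Of the 10, 0 passed in control, in stress or in recovery, where 0.0459%, 0.161% and 0.126% of 8707 genes tested passed (edgeR quasi-likelihood test; at an unadjusted p under 0.05 the 10 gave 0, 1 and 2). DESeq2 called 0 of the 10 in each as well. The log2 differences of Rin from Mock ran from -0.11 to 0.12 in control, from -0.050 to 0.19 in stress and from -0.25 to 0.093 in recovery. Nearest to the threshold was IntS4 in recovery, with 30.5, 34.1 and 29.1 CPM in Rin recovery and 37.5, 36.6 and 38 CPM in Mock recovery libraries. These libraries did not overlap, which held for 20.5% of all genes tested, and the difference did not pass (log2 -0.25, SE 0.064, 95% interval -0.39 to -0.12, edgeR adjusted p = 0.129).

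The response of Rin cells minus that of Mock cells passed for 0 of 10 transcripts in stress and 0 of 10 in recovery, as for 0% of all genes tested in each (edgeR; unadjusted p under 0.05 for 0 and 2 of the 10, and for 295 and 759 of all genes; DESeq2 0 of the 10 in each). For IntS4 in recovery the difference of log2 fold changes was -0.23 (95% interval -0.40 to -0.049, edgeR adjusted p = 0.549), for Slbp 0.20 (95% interval 0.0046 to 0.39) and for IntS9 -0.27 (95% interval -0.58 to 0.044). The widest interval in recovery, that of IntS1, ran from -0.55 to 0.097.

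Since Pcf11, su(f) and Slbp passed in different sets, the response of Mock cells minus that of WT cells was tested in 1 fit of the 27 poly(A) libraries, a comparison added after the values were seen. That fit takes 1 estimate of spread per gene, though replicates differed more in the Mock set. The chi-square over its degrees of freedom was 27.7 between Mock stress replicates 1 and 2, and 2.61 between WT stress replicates 1 and 2. In stress 4 of 10 transcripts differed, 1 higher and 3 lower, where 10.9% of 8902 genes tested were higher and 16.3% lower, 27.2% in either direction. In recovery 4 of 10 differed, 2 higher and 2 lower, where 19.7% of genes were higher and 23.3% lower, 43% in either direction. With only 10 transcripts, neither count sets them apart from all genes. The summed haemocyte markers were 955 to 1043 CPM in Mock control and 4617 to 4800 CPM in WT control libraries. These sums come from fits scaled separately, so they are only roughly comparable. Pxn was the largest part of each, and other markers differed too. Means in WT and Mock control libraries were 299 and 13.8 CPM for Hml, 69.1 and 6.36 for Col4a1, and 36.7 and 5.92 for vkg. They were 537 and 406 CPM for srp and 22.2 and 12.2 for eater. The S2R+ marker fz was the other way, at 17.3 and 27.5 CPM. The part of these marker differences in the differences of response was not tested. The set and the mock interference cannot be told apart.

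Pcf11 differed in both states. Its response was lower in Mock than in WT cells, with a difference of log2 fold changes of -0.37 in stress (SE 0.095, edgeR adjusted p = 0.00388) and -0.61 in recovery (SE 0.095, edgeR adjusted p = 7.54e-06). su(f) differed in the opposite direction, by 0.27 in stress (edgeR adjusted p = 0.0081) and 0.37 in recovery (edgeR adjusted p = 0.00025), since it fell in WT cells and did not pass in Mock cells. Slbp differed in stress by -0.32 (edgeR adjusted p = 0.00463), a call that was lost without Mock stress replicate 1 (log2 -0.22, adjusted p = 0.0576).

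Both CPSF subunits and IntS4 differed in 1 state each. Cpsf100 had a lower response in Mock cells in stress (log2 -0.47, SE 0.11, edgeR adjusted p = 0.00168). Cpsf73 had a higher one in recovery (log2 0.38, edgeR adjusted p = 0.00662), and in stress its difference of 0.29 missed the threshold (adjusted p = 0.0549), which it passed with RLE scaling, with a 10 CPM filter, by DESeq2 and without WT stress replicate 2 (adjusted p = 0.0107) or Mock stress replicate 1 (adjusted p = 0.00426). IntS4 had a lower one in recovery (log2 -0.33, edgeR adjusted p = 0.00183). The differences of IntS1, IntS9, IntS11 and CstF64 did not pass in either state; they ran from -0.20 to -0.0007 in stress and from -0.29 to 0.22 in recovery.

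**Figure D3:**
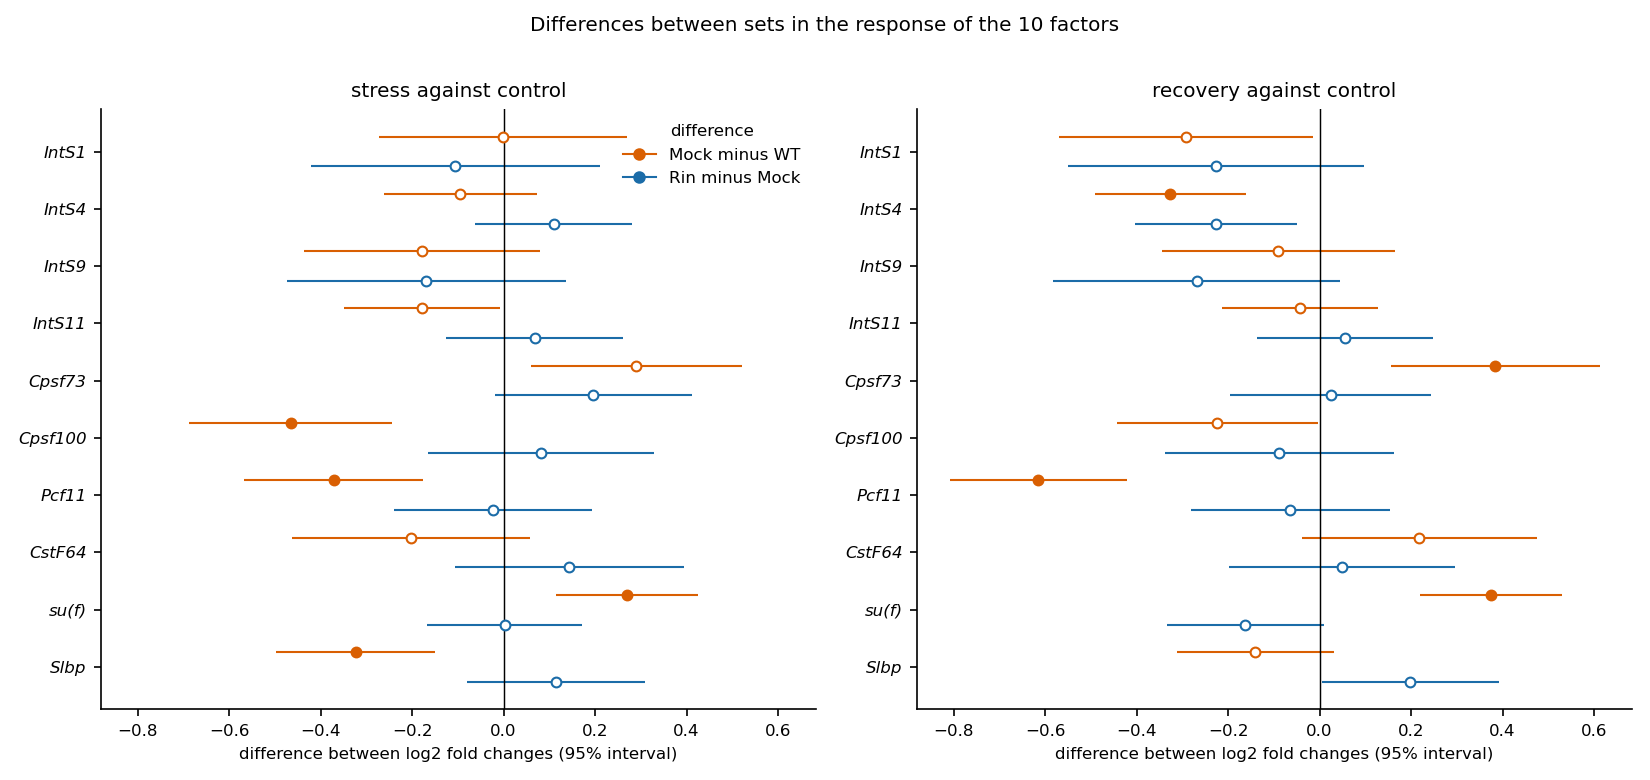
Difference between sets in the log2 fold change against control, in stress (left) and recovery (right), with 95% intervals, for Mock minus WT (orange, fit of 27 libraries) and Rin minus Mock (blue, fit of 18 libraries); filled points passed an edgeR adjusted p of 0.05. Filled points are found for Mock minus WT, with Pcf11 in recovery furthest from 0 at -0.61, and none for Rin minus Mock.

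In the Click-iT set 0 of 10 transcripts passed in stress against control, recovery against control or recovery against stress, and 0% of 6558 genes tested did so (edgeR; unadjusted p under 0.05 for 0, 1 and 1 of the 10, and for 983, 1448 and 727 of all genes). DESeq2 called 0 of the 10 in each, and 160, 545 and 5 of all genes. Member counts were low: a recovery library held as few as 1 read for IntS9, and recovery libraries held 169760 to 441624 reads on genes, against 657891 to 1451741 in control libraries. The libraries of a state also differed from each other, since on the first principal component Click-iT stress replicate 2 lay at -42.72, among the controls at -52.62 to -42.04, and the other stress libraries at 7.47 and 65.50. Click-iT recovery replicate 2 lay at -18.98, and the other recovery libraries at 79.60 and 54.11. Without Click-iT stress replicate 2, 304 genes were called in stress against control, 0 of the 10 among them.

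Pcf11 had 175, 229 and 161 CPM in Click-iT control, 311, 225 and 643 in Click-iT stress and 647, 193 and 321 in Click-iT recovery libraries. In stress and in recovery replicate 2 lay within the range of the controls, and the others were higher. Replicate 2 was also the lowest library of each of these states on the first principal component. The log2 fold change was 1.06 in stress (SE 0.49, edgeR adjusted p = 0.337) and 1.04 in recovery (SE 0.50, edgeR adjusted p = 0.255). Without stress replicate 2 the first was 1.33 (adjusted p = 0.137), and without stress replicate 3 it was 0.51 (adjusted p = 0.938).

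IntS4 had 53, 57.3 and 58.5 CPM in Click-iT control, 44.8, 60.7 and 46.7 in Click-iT stress and 39.1, 21 and 34.2 in Click-iT recovery libraries. The recovery libraries lay under both other states. Of all genes tested, 26.9% did not overlap between recovery and control and 16.6% between recovery and stress. The decrease did not pass (log2 -0.84, 95% interval -1.52 to -0.16, edgeR adjusted p = 0.169). IntS1, which fell in all 3 poly(A) sets, had 250.4, 355 and 229.8 CPM in Click-iT control, 288, 326 and 219.8 in Click-iT stress and 217, 235 and 219 in Click-iT recovery libraries. Its log2 fold change in stress had a 95% interval of -0.54 to 0.54, where its change in WT stress was -0.54. IntS11 had 234, 198 and 242 CPM in Click-iT control, 176, 187 and 427 in Click-iT stress and 421, 193 and 355 in Click-iT recovery libraries, and 1 stress and 2 recovery libraries stood well over the rest. Those libraries were also the highest of the set on the first principal component.

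Slbp had 40.7, 49.1 and 61.5 CPM in Click-iT control, 32.4, 39.9 and 37.4 in Click-iT stress and 27.1, 70.1 and 27.3 in Click-iT recovery libraries. Its stress libraries lay under the controls, as was so without overlap in either direction for 15.7% of all genes tested, and did not pass (log2 -0.46, edgeR adjusted p = 0.557). For the other 5 the libraries of the states overlapped. IntS9 ranged from 18.5 to 29.6 CPM in Click-iT control, 12.98 to 21.4 in Click-iT stress and 3.51 to 20.5 in recovery libraries. Cpsf73 ranged over 43.5 to 51.2 CPM in Click-iT control, 34.6 to 48.5 in Click-iT stress and 41.0 to 52.6 in recovery libraries. Cpsf100 had 30.2 to 58.0 CPM in Click-iT control, 35.7 to 59.2 in Click-iT stress and 45.6 to 63.2 in recovery libraries, which shows no separation of the states. CstF64 ranged from 11.3 to 17.3 CPM in Click-iT control, 11.2 to 15.9 in Click-iT stress and 13.7 to 24.1 in recovery libraries. su(f) ranged over 49.3 to 68.8 CPM in Click-iT control, 46.2 to 64.7 in Click-iT stress and 57.2 to 88.8 in recovery libraries. The Click-iT response minus the WT response passed for 0 of 10 in stress and in recovery (limma, Benjamini-Hochberg adjusted, 18 libraries), where 0.751% and 0.106% of 9460 genes tested passed; Slbp in stress came nearest, at -0.63 (95% interval -1.31 to 0.054, adjusted p = 0.503).

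**Figure D4:**
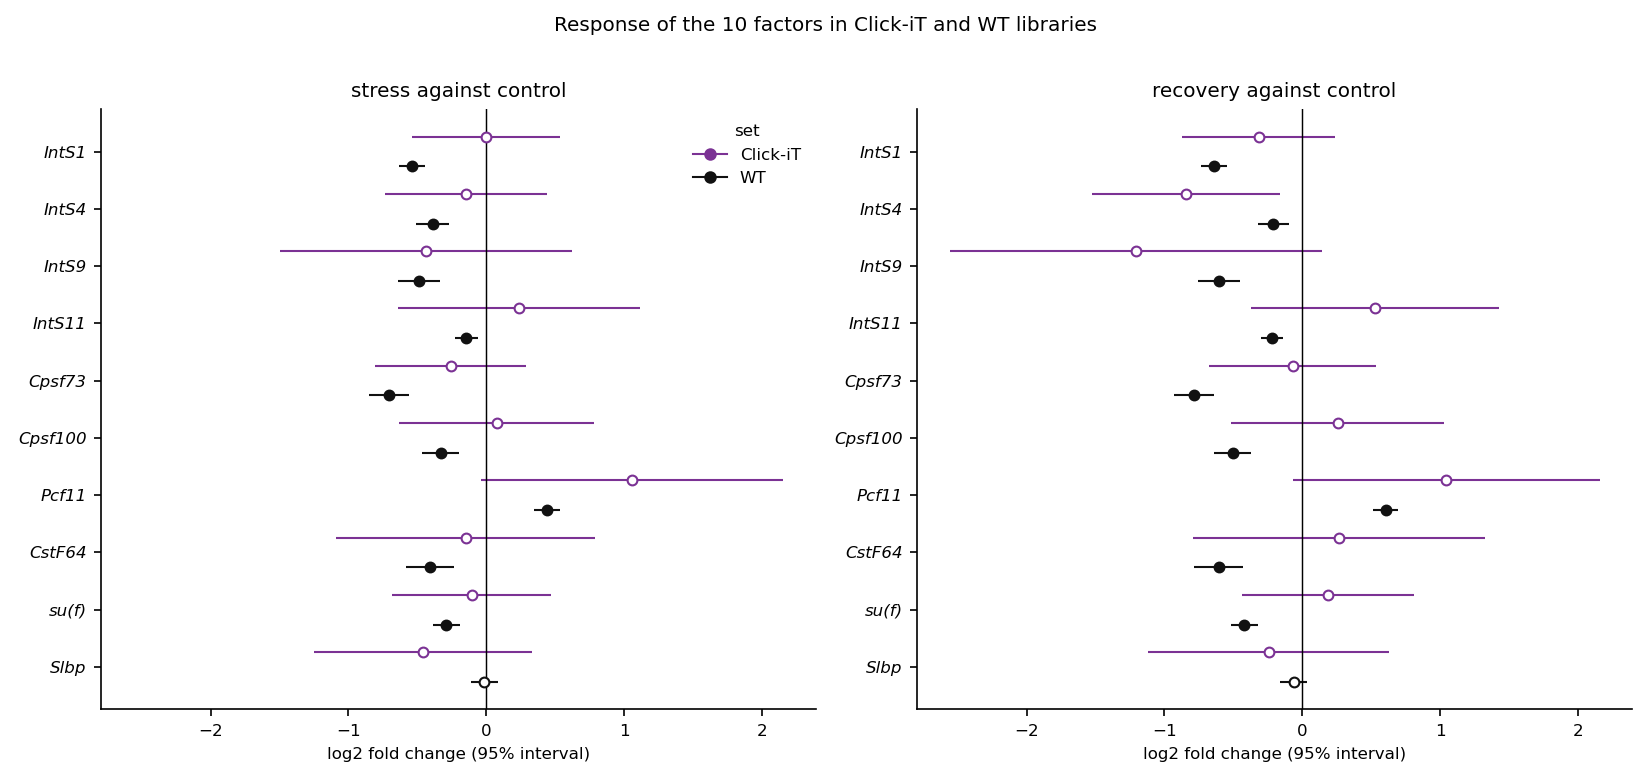
Log2 fold change of each transcript against control in stress (left) and recovery (right), with 95% intervals, in Click-iT (purple) and WT (black) libraries, 3 per group; filled points passed an edgeR adjusted p of 0.05. All Click-iT points are open and their intervals are several times as wide as those of the WT set.

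Of the 10 remaining Integrator subunits tested, 7 fell and 2 rose in Rin stress, 7 fell and 2 rose in Mock stress, and 7 fell and 1 rose in WT stress, where the median log2 fold change was -0.30. Over all genes tested, 30.8% fell and 30.4% rose in Rin stress, 29.8% fell and 29% rose in Mock stress, and 30% fell and 30.3% rose in WT stress. IntS6, an Integrator subunit that recruits the phosphatase PP2A, fell in all 3, with log2 fold changes of -0.50 in Rin, -0.42 in Mock and -0.42 in WT stress. asun (IntS13) fell in Mock (-0.87) and Rin (-0.76) stress and had -0.095 in WT stress, which did not pass. IntS12, named after its values were seen, rose in all 3, by 0.38 in Rin, 0.28 in Mock and 0.29 in WT stress. In recovery 7 of the 10 fell and 1 rose in Rin cells, with IntS6 at -0.81, 7 fell and 2 rose in Mock cells, and 7 fell and 1 rose in WT cells, where 34.3%, 32.8% and 33.5% of all genes fell.

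Of 12 other polyadenylation factors 6 fell and 2 rose in Rin stress, 7 fell and 2 rose in Mock stress, and 6 fell and 3 rose in WT stress. The shares of all genes that fell were 30.8%, 29.8% and 30% in these comparisons, and in WT stress, where 30.3% of all genes rose, the 3 that rose were near that share. Cpsf160, the largest CPSF subunit, fell in every poly(A) comparison with control, with log2 fold changes of -0.94 in Rin stress, -0.89 in Mock stress and -0.54 in WT stress, and of -1.38 in Rin recovery. Sym (symplekin, the scaffold shared by mRNA and histone cleavage) fell in Rin (-0.50) and WT (-0.43) stress, and CstF50, the remaining CstF subunit, fell in Mock stress (-0.52). At most 3 called genes with the largest change are named per list and comparison. A gene named in 1 set may therefore have changed in the others too. Cpsf5, of cleavage factor I, rose by 0.39 in WT stress. Pabp2, the nuclear poly(A)-binding protein, was named after its values were seen and rose by 0.19 in Rin, 0.18 in Mock and 0.31 in WT stress.

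Of 6 termination and elongation factors tested, 4 fell and 1 rose in Rin stress, 4 fell and 0 rose in Mock stress, and 2 fell and 1 rose in WT stress. The WT count was near the 30% of all genes that fell, and the median log2 fold change of the 6 there was -0.022; in Rin stress 30.8% and in Mock stress 29.8% of all genes fell. Rat1, the exonuclease that degrades RNA after the cut, fell in all 3, with log2 fold changes of -0.84 in Rin, -0.87 in Mock and -0.61 in WT stress. Ssu72, a phosphatase of the RNA polymerase II tail, rose by 0.41 in WT stress. Set2, a histone methyltransferase, fell in WT stress (-0.55) and was higher than control in WT recovery (0.22), and it fell in Rin (-0.98) and Mock (-0.87) recovery. Of 7 histone 3′ end and cap-binding factors, 5 fell and 1 rose in each of Rin and Mock stress, and 5 fell and 0 rose in WT stress, against the same shares of all genes. FLASH, a factor of histone transcript 3′ end processing, fell in Mock (-0.69) and WT (-0.40) stress, and Lsm10, of the U7 particle, fell in Rin stress (-1.27). Here too, only the largest changes of each comparison are named, so a set left out is not a set without change.

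**Figure D5:**
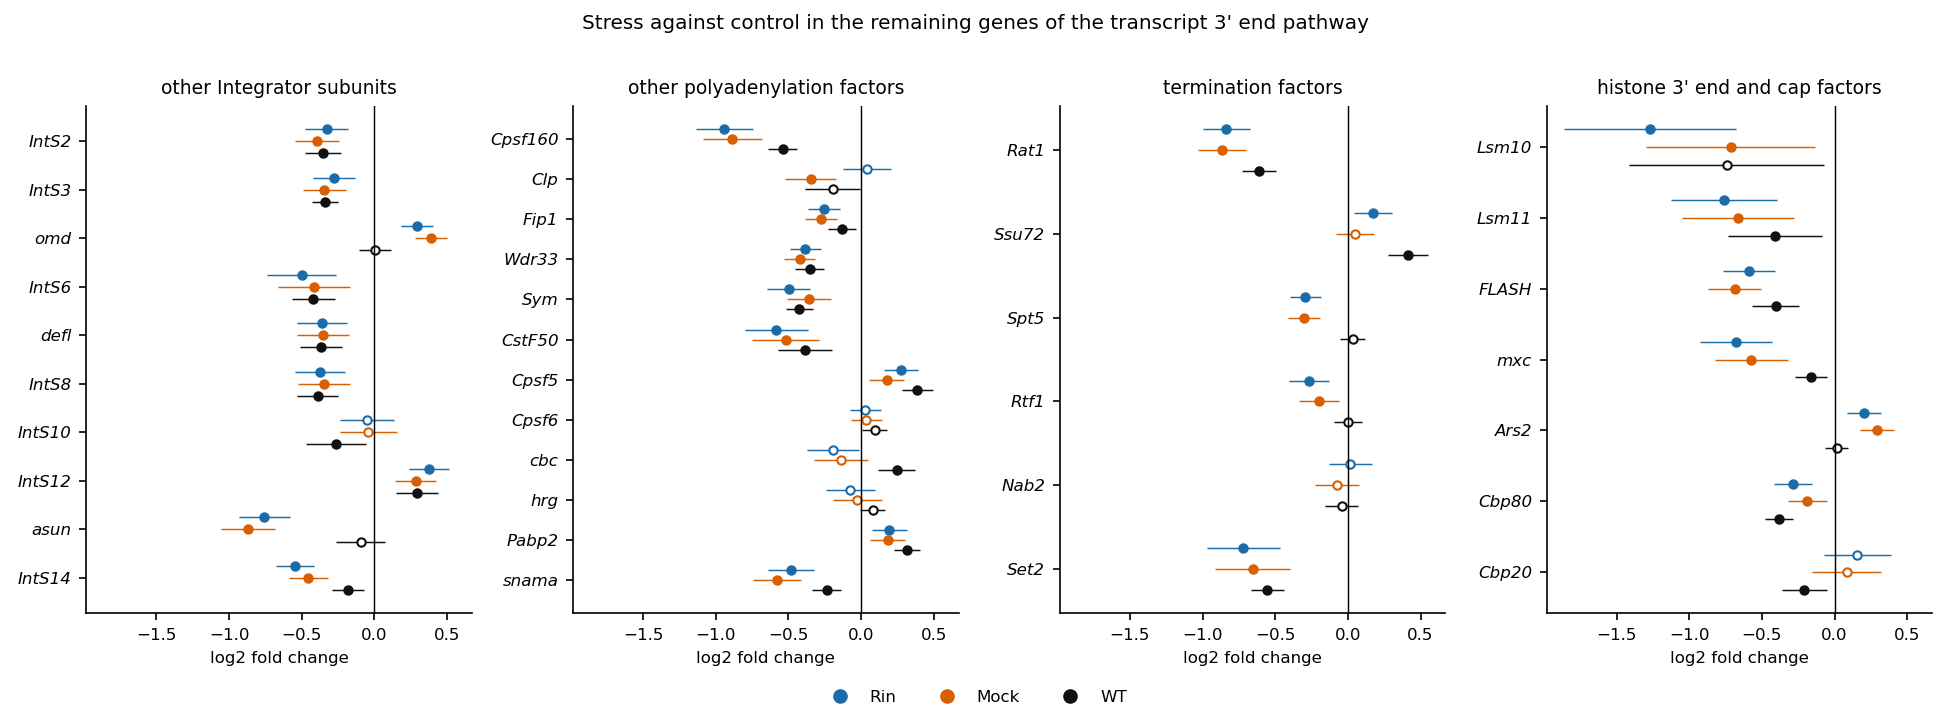
Log2 fold change in stress against control, with 95% intervals, of the other Integrator subunits, polyadenylation factors, termination factors and histone 3′ end factors in Rin (blue), Mock (orange) and WT (black) cells; filled points passed an edgeR adjusted p of 0.05. Most subunits lie left of 0 in all 3 sets, with Cpsf160 and Rat1 among the lowest, while IntS12, Cpsf5 and Pabp2 lie right of 0.

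Of 30 small nuclear RNA genes in the count files, 9 of 9 tested rose in Rin stress, 7 of 9 in Mock stress and 3 of 3 in WT stress, where 30.4%, 29% and 30.3% of all genes rose. Their median log2 fold change was 1.96 in Rin, 1.24 in Mock and 1.56 in WT stress. A gain of small nuclear RNAs in poly(A) libraries was part of the reason for choosing the 10 factors. These poly(A) counts are therefore a description and no new support. In the Click-iT set, labelled total RNA, the median of the 9 tested was -2.71 in stress against control, and 0 passed (edgeR, lowest adjusted p = 0.32), with all 9 at an unadjusted p under 0.05 and 0% of all genes passing. The Click-iT response minus the WT response in stress had a median of -3.03 over 10 tested, of which 1 passed, lower (limma adjusted p = 0.00378), against 0.751% of all genes passing in either direction. Many of these genes have near-identical copies, so the copy a read came from is uncertain.

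Of 5 histone genes tested, 2 were higher and 0 lower in Rin stress, and 2 were higher and 1 lower in each of Mock and WT stress, near the shares of all genes in Mock and WT stress. In recovery 5 were higher in Rin cells, 3 higher and 0 lower in Mock cells, and 2 higher and 1 lower in WT cells, where 35.2%, 33.1% and 35.2% of all genes were higher. A poly(A) library holds only those molecules of either kind that carry a poly(A) tail or are otherwise captured.

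Over the 27 poly(A) libraries, with each set centred on its own mean, the correlation between the 10 (log2 of CPM plus 1) is given as a description, since the libraries share treatments. Among the 7 transcripts that fell in all 3 sets, the 21 pairs had r from 0.69 to 0.91, with IntS9 and Cpsf100 at 0.91 and IntS1 and IntS4 at 0.90. The enzyme IntS11 and its partner IntS9 had 0.90, and the enzyme Cpsf73 and its partner Cpsf100 had 0.76. su(f) with CstF64, the other subunit of its complex, had 0.61. Pcf11 had a negative r with each of the other 9, from -0.63 with Cpsf73 to -0.058 with IntS4.

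Among 6424 genes that averaged 10 CPM or more, the profiles most like those of IntS1 were hyd and aux (r = 0.99 each), and those most like Cpsf100 were thoc5 and Pen (0.98 each). IntS9 was closest to Tif-IA (0.97), IntS4 to Wsck (0.96), Cpsf73 to pit (0.95), CstF64 to Art8 (0.94), IntS11 to CG8173 (0.93), Slbp to Ts (0.92) and su(f) to Nepl3 (0.91). Pcf11 was closest to dl, the NF-κB family factor Dorsal, and to CG9932 (0.95 each). The log2 fold change of dl was 0.041 in Mock stress and -0.015 in Mock recovery, which did not pass, and 0.65 in WT stress and 0.84 in WT recovery, which did. That of CG9932 was 0.34 in Mock stress, which passed (edgeR adjusted p = 0.0458), 0.18 in Mock recovery, which did not, and 1.14 in WT stress and 1.42 in WT recovery, which did. In Rin stress and recovery, dl had 0.028 and -0.097 and CG9932 had 0.25 and -0.048, which did not pass. Both genes were picked by r over these same libraries, so their changes describe the likeness and are no separate evidence.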

How the data were processed

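RNA of S2R+ cells was isolated with TRIzol and poly(A) RNA libraries were made with a TruSeq V2 kit and read single-end, per the labels' protocols. The deposited counts are whole reads per gene symbol in each of 36 libraries; STAR 2.5.3, HTSeq and DESeq2 and the build dm6 appear in the submitters' processing notes, with no strand setting given in the sources used here. HTSeq rows that name no gene were left out of library sizes and tests, and 12 deposited tables of the whole series were not used. The authors pooled no replicates in these count files.

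Counts were fitted with edgeR 4.0.16 (R 4.3.3): TMM scaling, filterByExpr, the quasi-likelihood test, two-sided, with calls at p under 0.05 after Benjamini-Hochberg adjustment. The WT, Mock with Rin, and Click-iT libraries each had their own fit; CPM values are TMM-scaled within a fit, so levels are compared within it. The Click-iT and WT responses were compared with limma 3.58.1 (voom with sample weights), and the Mock and WT responses in an added edgeR fit of the 27 poly(A) libraries. SE is the log2 fold change over the root of F. Low-count p-values are bounded by edgeR and can exceed what an interval implies. RPKM were computed from the counts and exon lengths of the Ensembl annotation of dm6, which also gave positions and overlaps.

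The 10 members and the pathway and marker lists were chosen with earlier results of these data known. Pathway genes named are at most 3 called genes per list and comparison with the largest log2 change; likeness names the 2 genes with the highest r among genes averaging 10 CPM or more. In no comparison did every same-numbered pair of libraries have deviations correlated at r over 0.1 (0.0514 to 0.163 in Mock recovery against control, where each library was closest to its own number), so no block was used. The level of rin itself did fall with replicate number in each Rin group. Whether same-numbered Rin libraries share a knockdown is not given in the sources used here. Alternatives were other scalings, filters, DESeq2 1.42.0, fewer groups in the fit, a replicate block, a size threshold and leaving out each replicate. Scripts were tested on simulated data.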

Additional observations from a re-analysis of the deposited data

Results flagged for a closer look

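The responses of 8 transcript and state pairs differed between Mock and WT cells in an edgeR test of the difference itself (Benjamini-Hochberg adjusted, 27 libraries), where 27.2% of all genes tested differed in stress and 43% in recovery. In stress the difference of log2 fold changes, Mock minus WT, was -0.47 for Cpsf100, -0.37 for Pcf11, -0.32 for Slbp and 0.27 for su(f). In recovery it was -0.61 for Pcf11, -0.33 for IntS4, 0.38 for Cpsf73 and 0.37 for su(f). Whether these differences come with the mock interference or with the set cannot be told apart.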

How the results depend on the processing

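No direction of a called transcript reversed under any alternative run. Asking also for a change of 1 or more on the log2 scale left 0 of the 10 called in each WT comparison, in each Mock comparison, in Rin stress, in Rin recovery against stress and in both Mock minus WT responses, and 2 in Rin recovery. Over all genes it left 691, 1114 and 463 in the WT comparisons (stress, recovery, recovery against stress), 1006, 1282 and 48 in Mock, 1038, 1528 and 70 in Rin, and 308 and 674 for Mock minus WT. Scaling by total counts alone moved the median of all genes to -0.094 and -0.18 in WT, -0.16 and -0.23 in Mock and -0.16 and -0.25 in Rin (stress and recovery, log2). It called 6 of 10 in WT recovery against stress (0 higher, 6 lower), 7 in Rin recovery against stress, all lower, and 7 for Mock minus WT in recovery. Under it 1901 genes rose and 3285 fell in WT stress (2459 and 2438 with TMM), and in WT recovery 2003 rose and 4092 fell (2861 and 2719). Mock stress gave 1685 up and 3769 down (2525 and 2592), Mock recovery 1738 up and 4266 down (2881 and 2852), Rin stress 1753 up and 3799 down (2649 and 2678), and Rin recovery 1811 up and 4377 down (3067 and 2985). DESeq2 called 1 of 10 in WT recovery against stress, and fitting the compared groups alone gave 0 in Mock recovery against stress. Leaving out 1 replicate gave 1 to 5 of 10 in WT recovery against stress and 0 to 3 in Mock recovery against stress. The cause was not tested in any of these.

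For Mock recovery against stress 812 genes were called, 1274 with no filter, 99 with the compared groups alone, 1439 with total counts, and 233 to 2396 without 1 replicate. The replicate block changed 1 transcript call (su(f) in WT recovery against stress, adjusted p = 0.0538) and gave 8 in place of 14 genes in Rin against Mock stress; every library correlated best with its own number in Mock recovery against control and in no other comparison. Depth limits the Click-iT set, where recovery libraries held 1 to 215 reads per transcript, and its libraries of a group also differed beyond counting error (chi-square over its degrees of freedom 3.76 to 94.2); the parts of depth and of this spread were not separated. Click-iT genes called became 851, 1006 and 96 with no filter, with 0 of the 10 among them.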
